A study of Mus musculus with 15 samples.

Results

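Gene expression was described in the control line of a study on the transcription factors Atf3 and Atf4, using 5 of the 15 RNA sequencing libraries of the series. The 5 libraries were chosen by their titles alone, which name them as overexpression controls. Neural precursor cells, which divide in the adult hippocampus and can form neurons and glia, had been taken from mice that the labels describe as female and 6 weeks old, and had been grown as an attached layer with EGF and FGF2. The control line carried a piggyBac insertion with the TRE3G promoter, a TetON-3G transactivator driven by SV40 and a puromycin resistance gene, but no coding sequence of Atf3 or Atf4. It was 1 stable line and its genetic background is not given in the sources used here. Both growth factors were withdrawn together with a change of medium, doxycycline was added at 100 ng/ml at that moment, and cells were harvested 10 h later. All values therefore describe doxycycline-treated, transgene-carrying cells at a single time, and no untreated or proliferating sample of this line was analysed here. The labels do not say that the 5 libraries came from separate cultures, so every SD measures the spread between libraries, which may be technical.

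Neural precursor cells of the adult hippocampus keep the transcription factor Sox2, the intermediate filament nestin (Nes) and, in their radial glia-like form, glial fibrillary acidic protein (Gfap). EGF and FGF2 hold them in division through receptor tyrosine kinases and the ERK kinases, and their removal starts differentiation in culture. Immediate early genes such as Fos and Egr1 are transcribed within minutes of a stimulus, without new protein synthesis, and their mRNAs are short-lived. Their products are transcription factors or feedback regulators of the same kinases.

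Libraries held 53.7 to 65.4 M counts, and 26419 to 27247 genes had at least 1 count in a library. Levels are given as counts per 1000000 (CPM), scaled by TMM over the 5 libraries. Genes are compared with each other only as transcripts per 1000000 (TPM), which divide by the length of each gene's annotated exons. Of 32597 genes with any count, 13908 had a mean of at least 1 CPM, 9916 of at least 10 CPM, 2428 of at least 100 CPM and 72 of at least 1000 CPM. The median gene at 1 CPM or more had a coefficient of variation of 4.75% over the libraries and a highest library 1.12 times its lowest. No pair of libraries was identical: the chi-square between the counts of a pair was 5.47 to 16.5 times its degrees of freedom, where sampling noise alone would give about 1. Mitochondrially encoded genes took 4.00 to 4.16% of the counts and ribosomal protein genes 3.99 to 4.18%.

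The sex chromosome genes went against the label. The Y-linked genes Eif2s3y, Ddx3y, Kdm5d and Uty had mean levels of 90.2 ± 3.73, 71.8 ± 1.98, 90.1 ± 2.01 and 39.4 ± 1.63 CPM (SD, n = 5). Each was present in all 5 libraries, with Uty, the lowest, between 37.3 and 41.3 CPM. Xist, the RNA that coats the inactive X chromosome of female cells, had 0.45, 0.59, 0.68, 0.51 and 0.32 CPM in replicates 1 to 5. The libraries are therefore described by their line and not by a sex, and the source of the difference was not tested.

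The 4 markers of precursor cells were all expressed, and each lay within a narrow range over the libraries. Sox2, a transcription factor that maintains neural stem cells, had 241, 226.1, 237, 234 and 248 CPM in replicates 1 to 5, a mean of 237 ± 8.26 CPM (SD, n = 5). Nestin (Nes) had 637, 702, 680.3, 702 and 722 CPM, a mean of 689 ± 32.2 CPM. In both genes replicate 5 was the highest library, and no library lay far from the others. Fabp7, the fatty acid binding protein of radial glia, had 523, 522, 588, 557 and 638 CPM, a mean of 566 ± 48.8 CPM. Gfap had 133, 147, 142, 126.0 and 149 CPM, a mean of 140 ± 9.78 CPM. Per length, Fabp7 was the highest of the 4 markers with 1346 TPM, ahead of Sox2 with 343, Nes with 319 and Gfap with 98.5 TPM. Fabp7 was rank 66 of the 13908 genes by TPM and Gfap rank 1578. All 4 markers of the labelled cell type were thus present in every library.

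Of the list of 20 stem and precursor cell markers, 19 reached a mean of 1 CPM. The median over the list was 81.2 TPM, beside a median of 18.7 TPM over all 13908 genes. The list's highest members after Fabp7 were the intermediate filament vimentin (Vim) with 1040 TPM, Sox2 and Nes. The receptors Notch1 and Egfr had 98.9 and 96.9 TPM. The exception was Prom1, the surface protein prominin, with 0.104 CPM. Among the 19 members at 1 CPM or more Hes1, a Notch target, varied most, with 37.9, 61.7, 47.5, 52.6 and 69.5 CPM, while its relative Hes5 had 11.7 ± 0.900 CPM (SD, n = 5). The sum of all 20 members ranged from 4041 to 4345 TPM.

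The most abundant transcripts belonged to mitochondria, translation, the cytoskeleton and energy metabolism. The 10 most abundant genes took 5.21 to 5.28% of all counts in a library. They included the predicted gene Gm10925, with 323645 to 376990 counts, and Gm28661 or Gm28437, nuclear copies described below, so the share is uncertain. In CPM, mt-Co1, a mitochondrially encoded subunit of cytochrome oxidase, was highest with 11034 ± 191 CPM (SD, n = 5). Per length, the leading nuclear protein-coding genes outside the ribosomal proteins included the elongation factor Eef1a1 with 7164 TPM and the actin-binding thymosin Tmsb4x with 6168 TPM. The brain creatine kinase Ckb had 5055 TPM and Olig1, a transcription factor, 3684 TPM. Further members of the 20 leading genes were actins (Actb 2840 and Actg1 2185 TPM), the chaperone Hsp90ab1 with 2088 TPM, and the membrane-linked proteins Marcks and Marcksl1 with 2011 and 1781 TPM. Secreted proteins among them were the growth factor pleiotrophin (Ptn) with 1874 TPM, prosaposin (Psap) with 1819 TPM and the binding protein Igfbp2 with 1663 TPM. Of these 20 genes, 16 were also among the leading 20 when the longest transcript was taken as the length. Of 84 cytosolic ribosomal protein genes 79 reached 1 CPM, and together they made 73524 to 75921 TPM. Some mitochondrial genes have nuclear copies with nearly equal counts, so that reads of both seem to have been counted in both: the predicted gene Gm28661 held 1.00269 times the counts of mt-Co2 and Gm28437 held 1.00107 times those of mt-Co3. Values of these genes are uncertain for that reason.

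**Figure D1:**
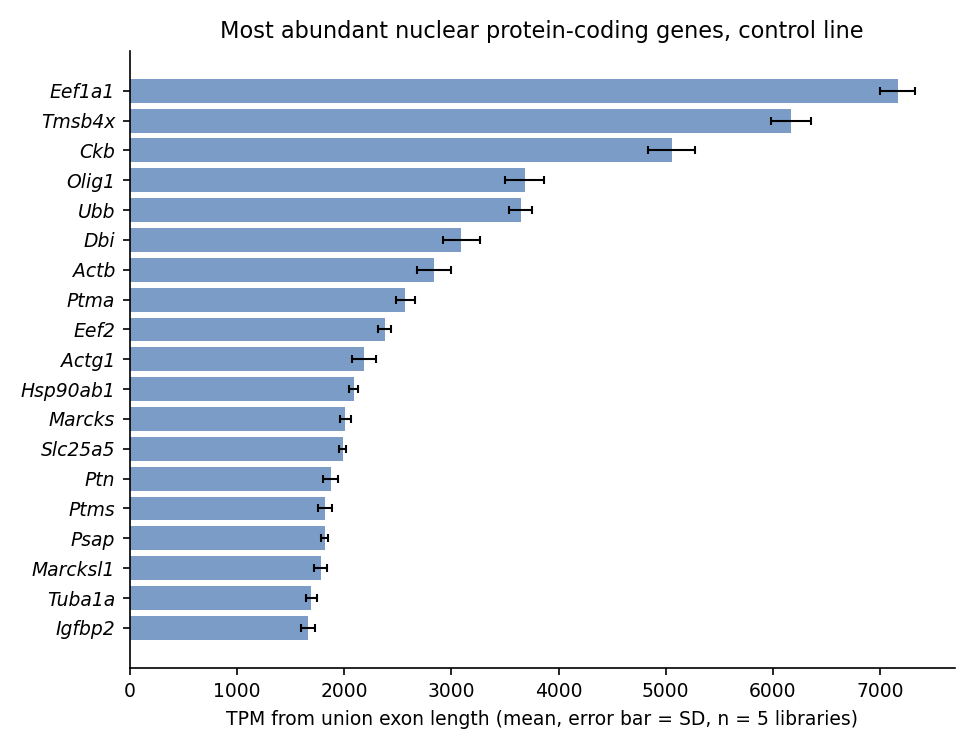
Mean TPM of 19 of the 20 leading nuclear protein-coding genes, ribosomal proteins left out, as bars starting at 0; error bars are the SD over 5 libraries. Eef1a1 leads with 7164 TPM, and Olig1 is the only neural lineage transcription factor drawn.

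Lineage genes gave an uneven picture, with some early glial factors at very high levels and many markers of mature cells, though not all, near 0. In the list of 17 oligodendrocyte lineage genes 10 reached 1 CPM. Olig1 had 2583, 2588, 2748, 2540.0 and 2924 CPM in replicates 1 to 5, a mean of 2677 ± 159 CPM (SD, n = 5). Olig2, its partner in the specification of oligodendrocyte precursors, had a mean of 1394 ± 95.4 CPM and was rank 52 by TPM. Every library held both genes at similar levels, with a highest library 1.15 and 1.19 times the lowest. Cnp, a myelin enzyme that is also made by precursors, had 428 TPM. Other members of the list were low or at 0; those named next were chosen after their values were seen, except Nkx2-2. Pdgfra, the receptor that marks oligodendrocyte precursors, had 4.98 ± 0.518 CPM, and Sox10, a factor of the committed lineage, had 0.282 ± 0.0902 CPM. The myelin genes Mbp, Mog and Mag had 0.507, 0.0406 and 0.0299 CPM. Nkx2-2 had 0 counts among 297.7 M, and a count of 0 allows up to 0.0101 CPM over the 5 libraries, counting error only.

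Astrocyte markers were divided in the same way. Of 12 members 8 reached 1 CPM, led by the glycolytic enzyme Aldoc with 425 TPM, the apolipoprotein Apoe with 319 TPM and the calcium-binding protein S100b with 202 TPM. Glutamine synthetase (Glul) had 199.6 TPM. The water channel Aqp4 had 0.431 CPM, the transporter Slc7a10 0.102 CPM, and the connexins Gja1 and Gjb6 0.00371 and 0.00309 CPM, which is 1 count each in all 5 libraries together. Aqp4, Slc7a10 and Gjb6 were named after their values were seen, as were Glul and the genes of the next paragraph beyond the 3 highest and the lowest of the list.

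Among 27 genes of the neuronal lineage 17 reached 1 CPM. Sox4, a transcription factor of newly formed neurons, had 829 TPM, the microtubule protein Map2 316 TPM and the tubulin Tubb3 141 TPM. Prox1, a factor of dentate granule cells, had 50.2 TPM. Most of the exon bases of Sox4 (54.6%) also lie in the predicted gene Gm26735, so its value is uncertain. The proneural and migrating-neuron genes were near the limit of 1 CPM, with Neurog2 at 1.80 ± 0.236 CPM, Eomes at 1.90 ± 0.199, Neurod1 at 1.28 ± 0.253 and doublecortin (Dcx) at 1.11 ± 0.115 CPM (SD, n = 5). Genes of mature neurons were uneven. The kinase Camk2a had 54.5 ± 2.77 CPM, the vesicle protein gene Syp 12.5 ± 0.416 CPM and Gad1, an enzyme of GABA synthesis, 5.22 ± 0.603 CPM (SD, n = 5), each in all 5 libraries. Rbfox3 and Stmn2 had 0.270 and 0.00983 CPM, and Gad2, the other GABA-synthesizing enzyme, had 0 counts.

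Markers of other cell types that a hippocampal culture could hold were at or near 0. None of 9 microglial, 10 mural and fibroblast, 4 choroid plexus and 4 pluripotency genes reached 1 CPM. Their highest members by TPM were Tmem119 with 0.559 CPM, Des with 0.617, Folr1 with 0.130 and Nanog with 0.951 CPM. The microglial genes C1qa and Trem2 had 0 counts in all 5 libraries. The endothelial list had 2 of 7 genes above the limit, the receptors Kdr with 46.1 ± 1.70 CPM and Tek with 2.03 ± 0.386 CPM, while its defining members Cldn5 and Pecam1 had 0.0101 and 0.178 CPM. The ependymal list had 2 of 6, Foxj1, the factor of motile cilia, with 23.7 ± 1.63 CPM and Cfap126 with 2.88 CPM. In a bulk library a few cells with much of an mRNA and many cells with little of it cannot be told apart.

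**Figure D2:**
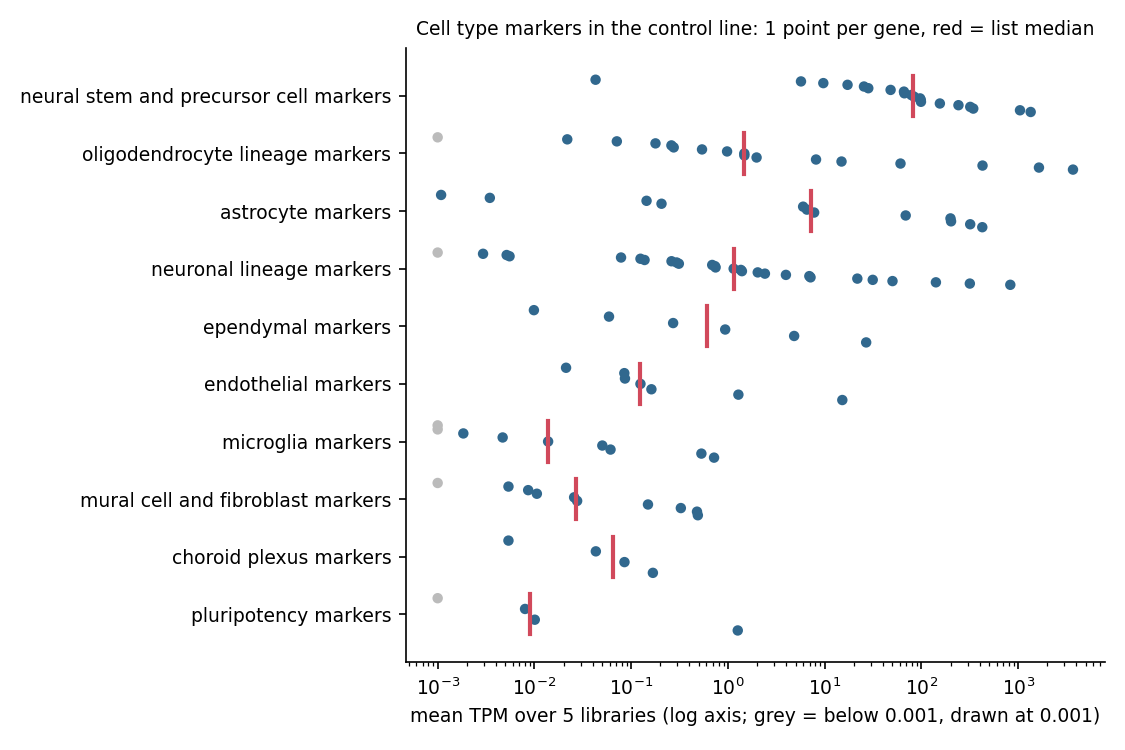
Mean TPM over 5 libraries (log axis) of every gene in 10 marker lists; each point is a gene, red bars are list medians and grey points lie below 0.001 TPM. The precursor list has the highest median, 81.2 TPM, and the oligodendrocyte list spans from 0 to 3684 TPM.

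Regional identity was read from patterning factors, which keep a trace of the part of the neural tube a cell came from. Of 15 forebrain factors 10 reached 1 CPM. Lhx2, a cortical and hippocampal selector gene, had 81.2, 78.6, 74.4, 73.5 and 75.0 CPM in replicates 1 to 5, or 51.9 TPM. Nr2f1 had 43.6 TPM and Zbtb20, a factor of hippocampal identity, 38.9 TPM. Zbtb20 was the forebrain factor that varied most above 10 CPM, with 371, 457, 459, 418 and 302 CPM. Emx2 had 21.5 TPM, whereas Emx1 had 0.118 CPM and Nkx2-1, a factor of the ventral forebrain, 0 counts. Emx1 and Emx2 were named after their values were seen.

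Of 23 midbrain and hindbrain factors 9 reached 1 CPM, among them Hoxa2, Hoxa3, Hoxa4 and Hoxa5. Hox genes are known for setting positions in the hindbrain and spinal cord. Hoxa5 had 31.3, 28.1, 30.4, 30.3 and 31.3 CPM, or 48.0 TPM, a level in TPM close to that of Lhx2. Hoxa4 had 14.3 TPM, and Hoxa2 and Hoxa3 had 1.82 and 10.8 CPM. The spread of Hoxa5 between libraries was small, with a coefficient of variation of 4.42%. Of the Hoxb genes, Hoxb1, Hoxb2, Hoxb3 and Hoxb5 had 0 counts in all libraries and Hoxb4 a single count. Irx3 had 11.1 TPM and En2 7.01 TPM. The hippocampal label thus stood beside both forebrain factors and Hoxa genes, and whether they come from the same cells was not tested.

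**Figure D3:**
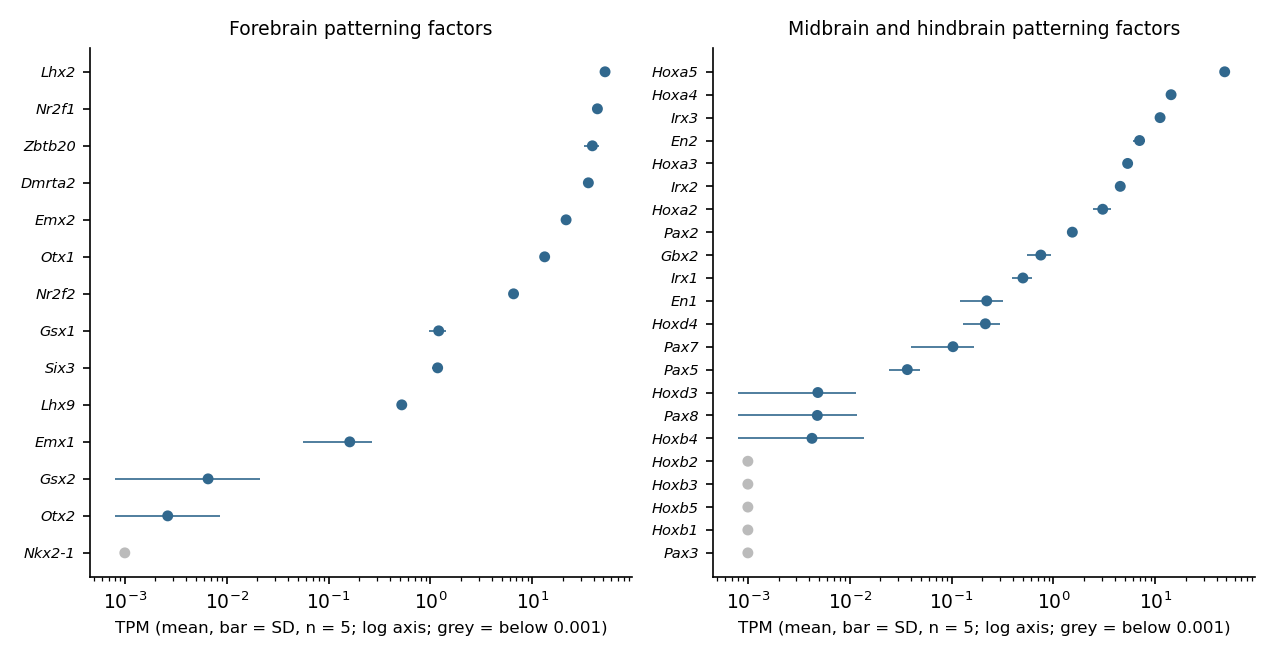
Mean TPM (log axis) with SD over 5 libraries for 14 forebrain and 22 midbrain and hindbrain factors; grey points lie below 0.001 TPM. Lhx2 with 51.9 TPM and Hoxa5 with 48.0 TPM lead their lists.

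In a list of 46 glial and neural fate transcription factors, chosen with earlier results of these data known, 45 reached 1 CPM, and Sox10 did not. Of all 32597 genes with any count, 13908 reached it. The list leaves out some fate factors that were at or near 0 here. Nkx2-2 had 0 counts and Neurod2, named after its values were seen, had 1 count in all. The median of the 46 was 50.4 TPM. Below Olig1, Olig2 and Sox4, the leading members were Sox8 with 464 TPM, Sox3 with 458 TPM and the Notch pathway antagonist Hes6 with 412 TPM, which were named after their values were seen. Genes linked to quiescent stem cells were also present: 13 of 16 reached 1 CPM, led by Ptn, the metallothionein Mt1 with 851 TPM and the peptidase Cpe with 758 TPM. Thbs4, a matrix protein of quiescent cells, had 0.0439 CPM.

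Cell division genes were expressed 10 h after withdrawal. All 16 S phase genes and all 16 genes of G2 and mitosis reached 1 CPM. The replication clamp Pcna had 124 TPM, and the licensing helicase gene Mcm7 52.1 TPM, while the licensing factor Cdc6 was lowest with 0.952 TPM. The mitotic genes Cdc20, Tpx2 and Plk1 had 218, 107 and 99.8 TPM, and the lowest of that list, the checkpoint kinase Bub1, had 26.8 TPM. The G2 and mitosis list summed to 1161, 1089, 1215, 1375 and 1220.2 TPM in replicates 1 to 5, so replicate 4 was highest and replicate 2 lowest. The S phase list summed to 423, 409, 461, 487 and 452 TPM, with the same 2 libraries at its ends. Inhibitors of the cycle were expressed beside them, with Cdkn1a (p21) at 297 TPM, Cdkn2d at 156 TPM and Cdkn2a at 137 TPM. Among D cyclins and inhibitors the cyclin Ccnd2 was lowest with 9.32 TPM.

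Genes of other programmes gave reference levels. Among integrated stress response genes Phgdh, the first enzyme of serine synthesis, and Ddit4, an inhibitor of mTORC1, each had 510 TPM. Atf4, the factor that drives this response, had 79.7, 85.9, 80.6, 90.4 and 96.4 CPM, a mean of 86.6 ± 6.99 CPM (SD, n = 5), and Trib3, one of its targets, 1.14 TPM. Cholesterol synthesis genes were led by Hmgcs1 with 474 TPM, and the 12 genes summed to 1480, 1536, 1762, 1830.2 and 1865 TPM in replicates 1 to 5. Of 11 hypoxia genes 8 reached 1 CPM, with a sum of 113 to 121 TPM. Of 10 interferon-stimulated genes 6 did, with a sum of 85.2 to 91.4 TPM. Cytosolic heat shock genes summed to 4690 to 4770 TPM, of which Hsp90ab1 made 2088 TPM on average. Single members varied more than these sums: Dnajb1 of the heat shock list had a range of 1.91-fold in the order of Fos, and Adm of the hypoxia list 1.90-fold. Adm was named after its values were seen.

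Fos, the founding subunit of the AP-1 transcription factor, differed widely between libraries of the same line. It had 21.7, 112, 56.0, 249 and 266 CPM in replicates 1 to 5, a mean of 141 ± 112 CPM (SD, n = 5) and 178 TPM. Replicate 1 was lowest, replicates 3 and 2 followed, and replicates 4 and 5 were highest, 12.3-fold from end to end. The raw counts behind these values were 1291, 6016, 3066, 16127 and 17234, so that counting error was small beside the spread. The total counts of the libraries were 59.6, 53.7, 54.6, 64.4 and 65.4 M. Replicates 4 and 5 were the deepest libraries as well as the highest in Fos, while replicate 1, the lowest in Fos, was deeper than replicates 2 and 3. The part of depth in the spread of Fos was not tested.

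A wide spread was rare. Across the 13908 genes, 58 (0.417%) had a highest library at least 2 times the lowest, after 0.5 CPM was added to each value. Of these 58 genes 22 were in the lists of early genes, 1 (Spry4) was in the list of growth factor receptors and feedback genes only, 28 were pseudogenes or copies of ribosomal protein genes, and 7 were others. The early lists hold 62 genes, of which 50 reached 1 CPM, so 22 of the 50 passed the limit. The median early gene had a highest library 1.82 times its lowest. The 341 genes of the other lists held 250 at 1 CPM or more, of which 1 passed, with a median of 1.17. The early genes were chosen with the spread of Fos known, so these counts are a description. Without replicate 3 the count of 58 was 32, with a minimum of 10 CPM 22, with a pseudocount of 0.05 CPM 125, and without pseudogenes and predicted genes, an alternative chosen after seeing the data, 27.

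**Figure D4:**
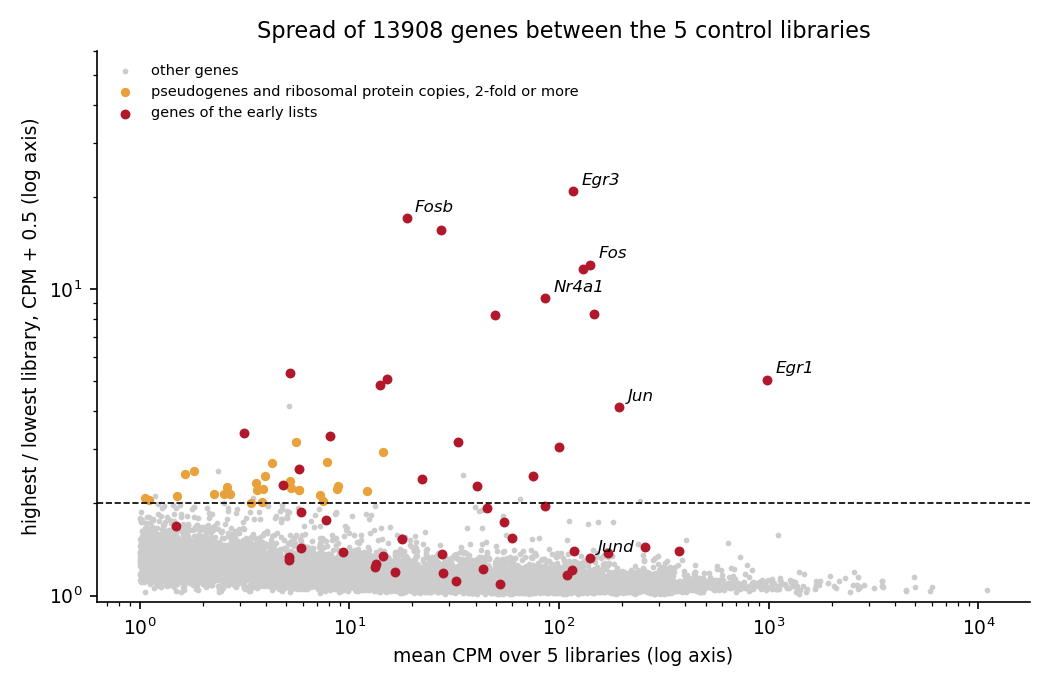
Highest over lowest library (CPM + 0.5, log axis) against mean CPM (log axis) for 13908 genes; red points are genes of the early lists, orange points are pseudogenes and ribosomal protein copies above 2-fold, and the dashed line is 2-fold. Most genes lie near the median of 1.12, and Egr3, Fosb and Fos are among the highest points.

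The 28 pseudogenes and ribosomal protein copies formed a separate pattern. Their summed level was 173, 167, 77.9, 166 and 106 CPM in replicates 1 to 5. In 25 of them replicate 3 was lowest and in 3 replicate 5, so their order was not that of Fos. The ribosomal protein pseudogenes as a whole took 0.108 to 0.123% of the counts of a library, and ribosomal protein genes themselves 4.07, 3.99, 4.10, 4.00 and 4.18%. Such copies share sequence with their parent genes, and how reads were divided between them is not given in the sources used here.

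Genes that vary with Fos were found by the distance between profiles, where a profile is log2(CPM + 0.5) in each library minus its mean. The distance is the root mean square difference between the profile of a gene and that of Fos, and a gene was called like Fos when it was at most 0.677, which is 0.5 times the root mean square of the Fos profile itself, 1.35. With 5 libraries no correlation is given. Of 13907 genes 11 (0.0791%) were like Fos, and 0 (0.0%) had the mirror image of its profile. The 11 were Egr2, Nr4a1, Junb, Ier2, Egr4, Egr3, Zfp36, Ccn1, Jun, Atf3 and Arl4d, in order of distance. Of these 10 are in the lists of early genes, and Arl4d, which encodes a small GTPase of the ARF family, is in none. The last genes inside the limit were Jun at 0.573, Atf3 at 0.612 and Arl4d at 0.643, and the first outside were Fosb at 0.701, Nr4a3 at 0.755, Dusp1 at 0.756 and Egr1 at 0.763.

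The 150 bases before the annotated start of 6 of these genes and of Fos are shown because short motifs in front of early genes are the sites that the cAMP and serum responses are known to use. Sequences are RefSeq's on GRCm38.p6, 5′ to 3′ on the strand of the gene. Capitals mark TGACG, the core of the cAMP response element, on either strand (CGTCA on the reverse one), and the CArG box, the site of serum response factor.
Fos, chr12:85473740-85473889, plus strand: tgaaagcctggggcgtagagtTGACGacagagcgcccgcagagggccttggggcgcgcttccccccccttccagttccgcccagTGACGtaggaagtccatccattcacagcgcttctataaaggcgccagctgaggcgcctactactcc
Egr2, chr10:67537719-67537868, plus strand: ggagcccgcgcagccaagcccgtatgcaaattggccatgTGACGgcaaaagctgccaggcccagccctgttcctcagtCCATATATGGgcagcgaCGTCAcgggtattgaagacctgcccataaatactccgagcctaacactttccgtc
Nr4a1, chr15:101266696-101266845, plus strand: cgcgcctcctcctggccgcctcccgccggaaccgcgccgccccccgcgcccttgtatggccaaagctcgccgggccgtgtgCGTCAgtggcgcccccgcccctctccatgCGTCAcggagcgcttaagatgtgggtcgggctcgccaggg
Junb, chr8:84978749-84978898, minus strand: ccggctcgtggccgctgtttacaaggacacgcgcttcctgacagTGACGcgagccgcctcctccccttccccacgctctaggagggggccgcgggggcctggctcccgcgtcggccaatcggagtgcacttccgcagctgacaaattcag
Egr4, chr6:85513590-85513739, minus strand: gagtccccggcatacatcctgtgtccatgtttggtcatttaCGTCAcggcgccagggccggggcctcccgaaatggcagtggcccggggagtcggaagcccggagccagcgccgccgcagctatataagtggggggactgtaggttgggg
Zfp36, chr7:28379229-28379378, minus strand: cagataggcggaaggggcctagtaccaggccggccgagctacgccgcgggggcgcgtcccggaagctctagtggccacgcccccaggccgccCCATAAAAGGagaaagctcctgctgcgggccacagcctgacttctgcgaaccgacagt
Arl4d, chr11:101665391-101665540, plus strand: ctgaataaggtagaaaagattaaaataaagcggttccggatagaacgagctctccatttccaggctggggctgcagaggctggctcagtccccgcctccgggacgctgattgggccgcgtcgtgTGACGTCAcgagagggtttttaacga
In Fos the motif TGACG begins at positions -129 and -66 from the start, and in Arl4d the full palindrome TGACGTCA, in which TGACG occurs on both strands, begins at -26. The CArG box begins at -72 in Egr2 and at -58 in Zfp36.

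Motifs were searched on both strands of the 250 bases before the start. Of Fos and the 11 genes like it, 10 are in the promoter table, and Egr3 and Ier2 are named only. The table holds 32851 promoters of 27025 genes, and a gene counts when any of its promoters holds the motif. TGACG was found in 8 of the 10 genes, in Fos, Egr2, Nr4a1, Junb, Egr4, Ccn1, Atf3 and Arl4d, beside 19.8% of all genes and 17.8% of all promoters. TGACGTCA, which contains TGACG, was found in Arl4d alone of the 10, beside 1.77% of genes and 1.55% of promoters. The CArG box was found in Egr2 and Zfp36, beside 1.62% of genes and 1.47% of promoters. TATAAA, searched on the strand of the gene only, was found in Fos and Ccn1, beside 8.94% of genes and 7.59% of promoters. Jun, the remaining gene of the 10, held none of these motifs. Its sequence and those of Ccn1 and Atf3 are not shown, so every sequence printed above holds a capitalized motif. Egr2 has 5 entries in the table, of which 4 hold the CArG box. A match is a run of letters and not a measured binding site. Sites further than 250 bases from the start, or with a base off the pattern, were not searched, in Fos or in any other gene.

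The AP-1 list, with the genes of the Fos, Jun and Atf3 families that pair into this factor, summed to 349, 594, 442, 1027 and 1066 TPM in replicates 1 to 5. Of its 11 genes 7 reached 1 CPM and 6 of them passed 2-fold. Jun, the main partner of Fos, had 78.0, 148, 99.3, 323 and 322 CPM. Junb had 10.6, 49.6, 24.6, 72.5 and 90.5 CPM. In both genes replicates 4 and 5 lay above all others, as in Fos, and Junb ranked the 5 libraries in the same order. Fosb, which was just outside the limit, had 2.50, 6.27, 2.80, 50.7 and 31.5 CPM, a 20.3-fold range with its highest level in replicate 4. Atf3 had 1.75, 3.13, 1.92, 11.5 and 7.86 CPM, a mean of 5.22 ± 4.28 CPM (SD, n = 5). This is its level in cells without the Atf3 coding sequence in the cassette, 6.56-fold from the lowest to the highest library. Fosl2 had 13.3, 20.6, 16.1, 28.1 and 32.8 CPM, a narrower spread in the same order. Jund, the highest of the list with 250 TPM, varied least, with 126.2, 129, 132, 146 and 167 CPM and a range of 1.32-fold. Of its exon bases 52.6% also lie in the predicted gene Gm11175, so its value is uncertain. Batf had 0 counts.

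The list of Egr, Nr4a and other early transcription factors summed to 602, 1886, 1131, 2025 and 2485 TPM. All 19 genes reached 1 CPM, and 11 passed 2-fold. Egr2, a zinc finger factor, had 20.2, 133, 60.3, 196 and 240.2 CPM and was the gene nearest to Fos, at a distance of 0.207. Egr3 had 10.6, 84.0, 32.2, 231 and 225 CPM, the widest range of all 13908 genes at 21.8-fold. Egr4 had 3.19, 14.5, 7.42, 57.1 and 54.0 CPM. All 3 genes kept replicate 1 lowest and replicates 4 and 5 highest. The orphan nuclear receptor Nr4a1 had 16.8, 62.8, 28.1, 161 and 159 CPM, at a distance of 0.208, and Nr4a3 3.94, 6.32, 4.64, 14.2 and 11.4 CPM. Ier2, a nuclear protein of the early response, had 32.0, 147, 75.5, 208 and 269 CPM. The remaining genes past 2-fold were Egr1, Myc, Klf6, Klf2 and Maff. Klf6 and Maff ranked the libraries as Fos did, with 2.31- and 2.84-fold ranges. Klf2 had its lowest level in replicate 3, with 3.26, 3.73, 3.07, 7.72 and 6.47 CPM. Nr4a2, of the same receptor family, had 5.90 ± 1.02 CPM and a range of 1.48-fold, and was named after its values were seen.

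Among 19 feedback and signalling genes 4 passed 2-fold. Zfp36, which encodes tristetraprolin, a protein that destabilizes early mRNAs, had 4.77, 10.8, 6.45, 22.7 and 25.1 CPM. Dusp1, a phosphatase of MAP kinases, had 15.8, 32.9, 22.1, 42.6 and 51.3 CPM. Both ranked the libraries exactly as Fos did. Ier3 had 1.17, 3.56, 2.27, 3.56 and 5.20 CPM. The highest members of this list by TPM, Zfp36l1, Btg2 and Dusp2, had 372, 279 and 254 TPM and ranges of 1.40-, 1.45- and 1.38-fold, and 55.9% of the exon bases of Zfp36l1 also lie in the predicted gene Gm26669. Of 13 early secreted, matrix and synaptic genes 5 reached 1 CPM and only the matrix protein Ccn1 passed, with 5.44, 11.3, 5.39, 29.5 and 23.9 CPM. The neuropeptide precursor Scg2 and the scaffold protein gene Homer1 had ranges of 1.22- and 1.09-fold. Of the members under 1 CPM, Arc, a synaptic early gene named after its values were seen, had 3, 9, 11, 59 and 46 counts, lowest in replicate 1 and highest in replicates 4 and 5, and Edn1 had 1 count in all. Arl4d had 1.95, 3.37, 2.72, 8.09 and 9.68 CPM.

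**Figure D5:**
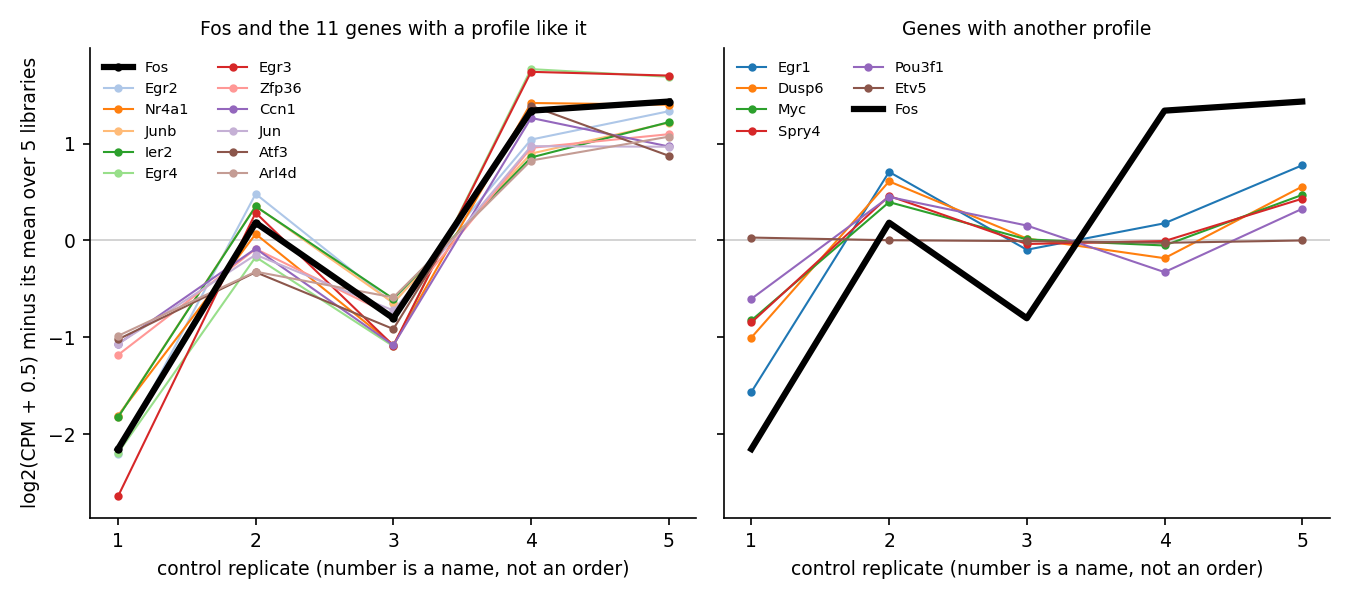
Log2(CPM + 0.5) minus its mean over the 5 libraries, by control replicate; lines join the points of a gene and imply no order. On the left, Fos (black) and its 11 like genes are lowest in replicate 1 or 3 and highest in replicates 4 and 5; on the right, Egr1, Dusp6, Myc, Spry4 and Pou3f1 are lowest in replicate 1 but have replicates 2 and 5 highest, and Etv5 is flat.

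Not all early genes followed Fos. Egr1, the most abundant of them with 650 TPM, had 288, 1393, 798, 964 and 1461 CPM. Its lowest library was replicate 1, as for Fos, but replicate 2 lay above replicate 4 and close to replicate 5. Dusp6, a phosphatase of ERK, had 46.1, 142, 94.1, 81.7 and 137 CPM. Myc had 40.3, 94.5, 72.3, 69.2 and 99.6 CPM. Both had replicates 2 and 5 as their highest libraries, like Egr1, and for both replicate 4 was lower than replicate 3. Spry4, an inhibitor of receptor tyrosine kinase signalling, had 18.2, 45.7, 32.3, 32.9 and 44.8 CPM. Pou3f1, a POU factor outside the lists that was named after its values were seen, had 41.3, 86.2, 70.2, 50.1 and 79.2 CPM. The resemblance of these genes to Egr1 was noticed in these values and was not measured by a rule.

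Of the 25 growth factor receptor and feedback genes 24 reached 1 CPM, and Dusp6 and Spry4 were the 2 that passed 2-fold. Spry2, an inhibitor of the same family with 196 TPM, had 98.8, 152, 132, 136 and 170 CPM. Its lowest library was again replicate 1 and its highest replicate 5. Etv5, an ETS factor known as a target of FGF signalling and the highest of the list with 264 TPM, had 372, 364, 362, 358 and 364 CPM, a range of 1.04-fold. Egfr, the receptor of the withdrawn EGF, had 362, 388, 385, 357 and 350 CPM. Fgfr4 was lowest with 0.0472 CPM. The list therefore held both genes with a wide spread and genes with almost none, in the same libraries.

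The order of the libraries was also counted alone, without the size of a difference. Of 13907 genes 144 (1.04%) ranked the 5 libraries exactly as Fos did, and 107 (0.769%) ranked them in reverse. Of the 144 genes 14 are in the early lists. With any 1 library left out, 4 libraries have fewer possible orders, and 512 to 735 genes matched and 446 to 677 were in reverse. Among genes in the order of Fos whose highest library was at least 2 times the lowest after 0.5 CPM was added, 8 of 9 were early genes: Egr2, Ier2, Junb, Zfp36, Dusp1, Maff, Fosl2 and Klf6, and the other was Arl4d. At 1.5-fold 11 of 26 were early genes, and at 1.25-fold 13 of 50. Genes just under 2-fold in the same order included Srf, the factor that binds the CArG box, with 59.0, 90.4, 61.7, 102 and 116 CPM, the phosphatase Dusp5 with 31.4, 45.2, 36.3, 53.3 and 61.1 CPM, and the chaperone partner Dnajb1 with 29.1, 39.8, 31.9, 50.9 and 55.5 CPM. Cyclin D1 (Ccnd1) had 79.7, 113, 110.2, 113 and 139 CPM in that order. These 4 genes were named after their values were seen. Ccnd1 shares 23.4% and Dusp5 22.1% of its exon bases with another annotated gene.

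Among genes in the reverse order, with predicted genes, clone names and pseudogenes left out, the widest ranges were under 2-fold. They were those of Far1os, an antisense RNA, with 1.58, 1.32, 1.48, 1.22 and 0.834 CPM, Tmod1 with 1.56, 1.39, 1.55, 1.18 and 0.927 CPM, and Tcfl5 with 1.83, 1.39, 1.66, 1.30 and 1.11 CPM. Their ranges were 1.89-, 1.68- and 1.65-fold. Of the genes left out, the pseudogene Gm13341 was also in the reverse order and passed the limit, with a 2.26-fold range. Its counts were 299, 229, 239, 219 and 144 in replicates 1 to 5, and it was named after its values were seen. Itga3, an integrin subunit, had 5.28 ± 0.895 CPM (SD, n = 5) and a 1.57-fold range. The library kit does not mark strand, so reads of Far1os and of the gene on the other strand cannot be told apart.

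The same measures were taken for the marker genes. None of the 19 precursor, 8 astrocyte, 10 oligodendrocyte and 17 neuronal genes at 1 CPM or more passed 2-fold, beside 0.417% of all genes, a share at which few or none of so few genes would pass, so the count says nothing particular about them. Sox2 had a range of 1.10-fold, Nes 1.13-fold, Fabp7 1.22-fold and Gfap 1.19-fold, beside 12.3-fold for Fos in the same libraries. Nes ranked the libraries exactly as Fos did, within its narrow range. Hes1 had a range of 1.83-fold, with replicate 1 lowest and replicate 5 highest as in Fos, but with replicate 2 above replicate 4. Of the S phase and the G2 and mitosis genes none passed either, with Cdc6 at 1.65-fold the widest.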

How the data were processed

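RNA sequencing of 5 control-line libraries was analysed. The authors deposited a table of raw counts (whole numbers, not scaled) over 55416 gene identifiers. The submitters' processing notes list STAR, edgeR and mm10. Versions, counting program, strand setting and annotation: not given in the sources used here. Per the labels' protocols, paired reads came from a NEBNext Ultra RNA library, a kit that keeps no strand, so overlapping and antisense genes are uncertain.

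Counts were scaled by TMM over the 5 libraries with edgeR 4.0.16 in R 4.3.3. Symbols (for 52135 identifiers) and exon lengths were taken from GENCODE M21, whose GRCm38 coordinates are those of mm10. Identifiers without a symbol, 0.149 to 0.208% of the counts, stayed in the totals. A pseudocount of 0.5 CPM and a minimum mean of 1 CPM were used for profiles. With 1 group there is no test. The profile script was tested on simulated data.

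The members, the 30 gene lists and the rules were chosen with earlier results of these data known. Named genes are the 4 markers, Atf3, Atf4, Fos, the sex chromosome markers, the 15 highest by CPM, the 20 highest by TPM, the 3 highest and the lowest of each list, early genes past 2-fold, the 15 nearest to Fos and the 10 widest in reverse order. Predicted genes, clone names and pseudogenes were left out of the nearest and the reverse-order genes. A subset is printed, a few genes that the rule names are not reported here, and list members between these, such as Notch1, Egfr, Hes1 and Hes5, were named after their values were seen. Alternatives were other scalings (RLE, plain totals), filters, a smaller pseudocount, another gene length and each library left out.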

Additional observations from a re-analysis of the deposited data

Results flagged for a closer look

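The highest or lowest library was compared with the other 4 in 168 values, and in 10 it lay far from them (a gap over 0.71 of the whole range). For normally distributed values chance gives this in about 1 of 20 such groups. A gene with counts in a single library passes whatever its level, so that rate does not hold for such genes. The values at measurable levels were Glul in replicate 5 with 238.1 CPM beside 215 to 221 CPM in the others, Hes6 in replicate 5 with 265.4 CPM beside 244 to 249 CPM, and Neurog2 in replicate 3 with 2.212 CPM beside 1.61 to 1.76 CPM. Tmem119 had 0.2938 CPM in replicate 4 beside 0.571 to 0.668 CPM, and Slc7a10 0.1856 CPM in replicate 4 beside 0.0671 to 0.0927 CPM. The rest were genes with counts in a single library and 0 in the other 4, namely Cldn5 in replicate 1 with 0.05036 CPM, Gja1 in replicate 2 with 0.01854 CPM, Hoxb4 in replicate 3 with 0.01828 CPM, and Edn1 and Gjb6 in replicate 4 with 0.01546 CPM each. The explanation of these values was not tested.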

How the results depend on the processing

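Counts of genes like Fos, of genes with its mirror image and of the leading 20 genes stayed within 1.5 times their values under every alternative run. The genes like Fos were 11 under RLE scaling, plain totals, no filter and a pseudocount of 0.05 CPM, 9 with a minimum of 10 CPM, and 10 to 12 with each library left out. All 11 were shared except that 9 were shared without replicate 4, 10 without replicate 5 and 9 with the minimum of 10 CPM. The count of genes with a 2-fold range, 58, was 22 with the minimum of 10 CPM, 125 with the smaller pseudocount, 27 without pseudogenes and predicted genes (chosen after seeing the data) and 32 to 54 with each library left out, 32 being without replicate 3. The reverse order held 63 genes with the minimum of 10 CPM and 182 with no filter, which test fewer and more genes. With each library left out, 512 to 735 genes were in the order of Fos and 446 to 677 in reverse, since 4 libraries have fewer orders. The share of the 10 leading genes was 5.24% on average. The 10 leading genes outside the mitochondrial genome, another set, took 4.15% of the counts outside it. That set includes Gm28661 and Gm28437, whose reads seem to have been counted for mitochondrial genes too, so the 4.15% is uncertain. Mean levels of the named genes moved by less than their SD, or stayed at 0, in all 1120 recomputations (other scalings and each library left out). Leaving out 1 of 5 libraries moves a mean by less than its SD whatever the values, so only the other scalings could have failed. The mean of Fos was 141 CPM with all libraries and 110 CPM without replicate 5. Genes under 1 CPM rest on few counts, and a count of 0 limits a level only to 0.0559 CPM in the smallest library. No paired analysis was possible because only 1 group is described.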
